A study of Mus musculus with 8 samples.

Results

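Hemoglobin carries oxygen in red blood cells and is built from alpha-like and beta-like globin chains. In the mouse, the primitive erythroid cells that arise in the yolk sac use embryonic globin genes, *Hbb-y* and *Hbb-bh1* of the beta-like cluster and *Hba-x* of the alpha-like cluster. The definitive erythroid cells made later by the fetal liver use the adult genes *Hbb-bs*, *Hbb-bt*, *Hba-a1* and *Hba-a2*. The replacement of embryonic by adult chains during development is known as globin switching, and *Bcl11a* and *Sox6* are among its best known regulators.

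These 7 globin genes were examined, out of 33971 genes counted by RNA sequencing of whole E14.5 mouse brains. They were taken by name, and each name stood on 1 gene identifier. The genes were chosen from their measured difference between the diets in these same brains, so that difference is described below and not tested. Embryos were wild-type (WT), from WT females mated with WT males. The dams received a choline-deficient diet (CDD, 4 brains) or normal chow (ND, 4 brains), and RNA was selected for poly-A tails. The CDD was given from the mating day, although another passage of the study places its start before mating. Strain, sex, and the number of dams and litters are not given in the sources used here, so p-values measure the spread between these brains only, and litter and diet may not be separable. No source states that the vessels of these embryos were emptied of blood.

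All 7 genes passed the filter on low counts that left 19367 genes for testing. Libraries held 31770217 to 43121170 counts. CDD replicate 2 stood apart with 4984 counts on Hox genes, against 16 to 112 in the other 7 brains, and ND replicate 3 had the highest count of every adult globin gene. Values without both of these brains are given for *Hbb-y* and *Hba-x* and for the numbers of calls. Without both, 11 of the 16 calls in the pathway lists described below ended. That the samples were brain was borne out by 12 brain markers. Their summed level was 6838.9 to 7649.7 CPM (counts scaled to a common library size) in CDD and 6929.7 to 7059.3 CPM in ND brains. The sum does not show whether each sample held the same parts of the brain. Of these markers, 4 were called (adjusted p under 0.05, edgeR's quasi-likelihood test), as were 8.83% of all tested genes. The progenitor gene *Nes* had a log2 fold change of 0.47 (SE 0.078, adjusted p = 0.00344, same test). The others were *Pax6* at 0.25, *Gad2* at 0.16 and *Neurod2* at -0.20. *Nes* was higher in 4 of 4 CDD brains than in any ND brain, as were 7.65% of tested genes. The pan-neuronal tubulin *Tubb3* was at 1735.9 to 1991.3 CPM in CDD and 1825.8 to 1886.6 CPM in ND brains.

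The sequences just upstream of 4 of these genes are shown because the embryonic and adult members took different courses between the diets. RefSeq promoter windows on GRCm38.p6 were found for 6 of the 7 genes, and *Hbb-bh1* is named only. Each line holds the 150 bases before the transcription start, 5′ to 3′ on the strand of the gene, at chr7:103853208-103853357 (minus strand) for *Hbb-y*, chr11:32276450-32276599 (plus strand) for *Hba-x*, chr7:103827929-103828078 (minus strand) for *Hbb-bs* and chr11:32283522-32283671 (plus strand) for *Hba-a1*. Capitals mark matches, on either strand, to CCAAT, to CCNCNCCC (the kind of CACCC box that KLF1 binds), to GATAA (the core of a GATA site) and to ATAAA (as in TATA boxes).
Hbb-y: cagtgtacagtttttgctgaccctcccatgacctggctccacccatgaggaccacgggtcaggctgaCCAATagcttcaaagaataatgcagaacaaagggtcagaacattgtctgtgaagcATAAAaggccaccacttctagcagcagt
Hba-x: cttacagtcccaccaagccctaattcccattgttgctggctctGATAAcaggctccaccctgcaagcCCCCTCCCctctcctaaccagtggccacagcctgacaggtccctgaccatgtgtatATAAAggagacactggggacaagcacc
Hbb-bs: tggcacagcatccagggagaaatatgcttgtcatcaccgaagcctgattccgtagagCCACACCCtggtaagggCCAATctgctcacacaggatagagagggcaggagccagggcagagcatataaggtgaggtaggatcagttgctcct
Hba-a1: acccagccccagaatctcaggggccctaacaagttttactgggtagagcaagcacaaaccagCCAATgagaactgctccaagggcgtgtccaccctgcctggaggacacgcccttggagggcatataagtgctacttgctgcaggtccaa
CCAAT was present in the windows of *Hbb-y*, *Hbb-bs* and *Hba-a1* and in 24.5% of 32851 promoter windows of this length. CCNCNCCC was present in those of *Hba-x* and *Hbb-bs* and in 38.1% of all windows. GATAA was present in that of *Hba-x* and in 13.3% of all windows, and ATAAA in those of *Hbb-y* and *Hba-x* and in 24.1% of all windows. A match describes these letters and says nothing of binding. Close variants are left unmarked, such as TATAAG in *Hbb-bs* and *Hba-a1* and CCACCC in *Hbb-y*. No contrast between embryonic and adult genes is read from these marks. The windows of *Hba-a2* and *Hbb-bt*, not shown, both hold CCAAT, and that of *Hbb-bt* also CCNCNCCC and ATAAA.

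The embryonic beta-like gene *Hbb-y* (ENSMUSG00000052187, listed at chromosome 7, 103500956 to 103502423, minus strand) encodes the epsilon-y chain. The genome build of the deposited positions is not given in the sources used here, and they do not match GRCm38. *Hbb-y* was at 164.6, 188.5, 93.7 and 115.2 CPM in CDD replicates 1 to 4. It was at 30.2, 28.2, 34.3 and 26.2 CPM in ND replicates 1 to 4. The diets did not overlap, and the lowest CDD brain held more than the highest ND brain. On average CDD brains held 140.5 ± 43.6 CPM and ND brains 29.7 ± 3.48 CPM (SD over 4 brains each), a log2 fold change of 2.24 (SE 0.26), or 4.72-fold. Without CDD replicate 2 and ND replicate 3 it was 2.14.

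The embryonic alpha-like gene *Hba-x* (ENSMUSG00000055609, listed at chromosome 11, 32226400 to 32228116, plus strand) encodes the zeta chain, a partner of the embryonic beta-like chains. It was at 27.7, 32.1, 20.0 and 17.1 CPM in the CDD brains, and at 8.07, 5.28, 10.2 and 6.78 CPM in the ND brains. Here too the lowest CDD value exceeded the highest ND value. Its log2 fold change was 1.67 (SE 0.29), or 3.18-fold, and 1.68 without CDD replicate 2 and ND replicate 3.

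The third embryonic gene, *Hbb-bh1* (ENSMUSG00000052217, listed at chromosome 7, 103490844 to 103492371, minus strand), encodes a beta-like chain that is used mostly in the earliest primitive cells. It had 30, 31, 14 and 14 counts in the CDD brains and 7, 13, 13 and 12 in the ND brains. CDD replicates 1 and 2 (0.905 and 0.897 CPM) stood clear of the ND brains, CDD replicate 4 (0.422 CPM) was just above the highest of them (0.406 CPM), and CDD replicate 3 (0.325 CPM) was below 3 of them. The log2 fold change was 0.91 (SE 0.38). At this depth its level was near the limit of what can be compared. *Hbb-bh0*, a pseudogene between *Hbb-y* and *Hbb-bh1*, had 14, 10, 1 and 5 counts in CDD and 1, 0, 2 and 1 in ND brains and was not tested. Of the 3 embryonic genes, 2 were past an adjusted p of 0.05 in edgeR's test, where 4.24% of tested genes were called higher in CDD brains, and the same 2 lay above every ND brain in every CDD brain, as did 7.65% of tested genes. *Hba-x* was no longer past it with the replicate number as a block (adjusted p = 0.0931, edgeR) or without ND replicate 1 (0.0697) or ND replicate 4 (0.0782). Nothing is read from these shares or p-values, since the diets' difference chose the genes.

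**Figure D1:**
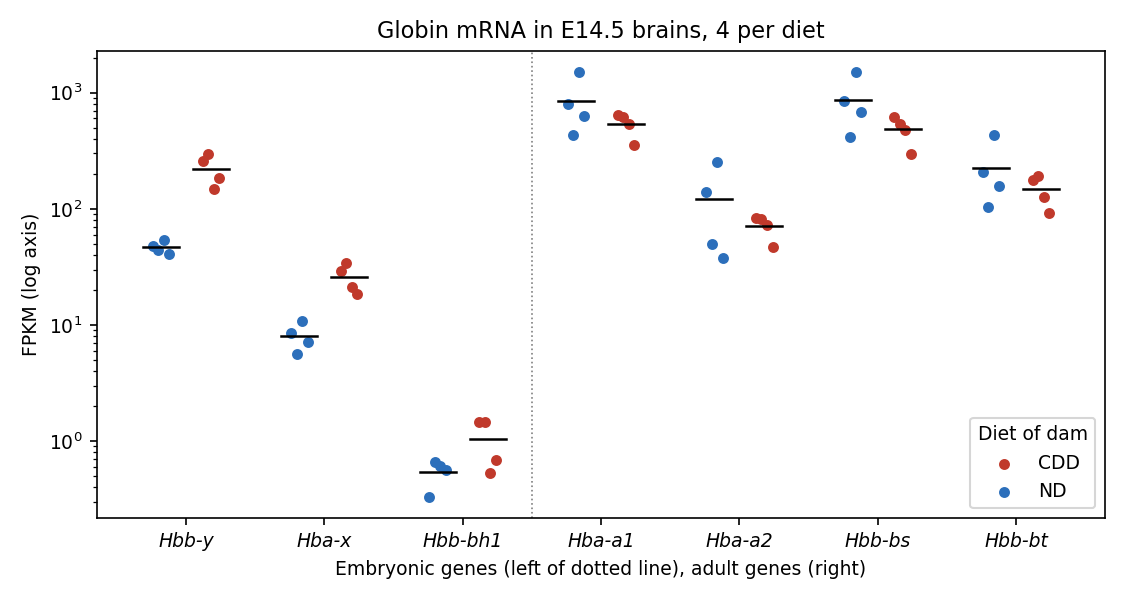
Level of each globin gene in each brain as FPKM (counts scaled by gene length and library size, log axis), with a point per brain and a bar at the mean of 4 brains. *Hbb-y* and *Hba-x* separate the diets, *Hbb-bh1* and the 4 adult genes overlap, and the topmost ND point of each adult gene is ND replicate 3.

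The adult alpha genes *Hba-a1* (ENSMUSG00000069919, chromosome 11, 32233511 to 32234465) and *Hba-a2* (ENSMUSG00000069917, chromosome 11, 32246489 to 32247298) encode the alpha chain of fetal and adult hemoglobin. *Hba-a1* was at 531.4, 501.9, 437.4 and 287.0 CPM in CDD brains. It was at 648.3, 349.3, 1231.1 and 517.1 CPM in ND brains. The diets overlapped, with ND replicate 3 far above all others and CDD replicate 4 lowest. *Hba-a2* was at 31.3 to 56.1 CPM in CDD and 25.2 to 170.6 CPM in ND brains.

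The adult beta genes *Hbb-bs* (ENSMUSG00000052305, chromosome 7, 103475741 to 103477303) and *Hbb-bt* (ENSMUSG00000073940, chromosome 7, 103461731 to 103463203) encode the beta chains. *Hbb-bs* was at 481.4, 415.9, 366.1 and 227.5 CPM in CDD brains. It was at 654.4, 318.9, 1167.6 and 530.9 CPM in ND brains. *Hbb-bt* was at 64.8 to 136.1 CPM in CDD and 72.5 to 308.8 CPM in ND brains. The log2 fold changes of the adult genes were all below 0, at -0.64 (SE 0.43) for *Hba-a1*, -0.76 (SE 0.65) for *Hba-a2*, -0.84 (SE 0.45) for *Hbb-bs* and -0.62 (SE 0.51) for *Hbb-bt*. Without ND replicate 3 they were -0.20, -0.10, -0.43 and -0.08. None of the 4 was called, where 4.59% of tested genes were called lower in CDD brains and 8.83% in either direction.

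Reads of the adult copies are hard to assign. The coding sequences of *Hba-a1* and *Hba-a2* differ in 1 of 429 bases and those of *Hbb-bs* and *Hbb-bt* in 1 of 444 bases in GENCODE transcripts. Of the windows of 100 bases in the transcripts of *Hba-a1*, *Hba-a2*, *Hbb-bs* and *Hbb-bt*, 56.5%, 74.5%, 62.6% and 54.8% also occur in another globin transcript. For the 3 embryonic genes this was 0.0% of windows even at 50 bases, and their coding sequences share 61.8% to 62.0% (*Hba-x*) or 73.9% to 76.4% (*Hbb-y* and *Hbb-bh1*) of bases with other members of the same length. How reads that fit both copies were counted is not given in the sources used here, so the split within a pair is uncertain. If such reads were left out, sums over the copies would be too low as well.

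That split varied in ND brains. *Hba-a2* took 9.55% to 9.93% of the adult alpha counts in the 4 CDD brains. In ND brains it took 12.7%, 8.73%, 12.2% and 4.65%, the lowest in ND replicate 4 (95% Wilson interval 4.36% to 4.96%, which covers counting error only, like all intervals here). *Hbb-bt* took 19.6% to 24.6% of the adult beta counts in CDD and 17.2% to 20.9% in ND brains. The 4 adult genes were therefore summed. Their sum was 1194.5, 1108.8, 941.1 and 610.6 CPM in CDD brains and 1542.9, 774.2, 2878.1 and 1183.7 CPM in ND brains, and the diets overlapped. In bulk RNA, fewer erythroid cells and less globin RNA per cell cannot be told apart.

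Compared per length, the order of the mean levels differed between the diets. In CDD brains *Hba-a1* (539.5 ± 131.5 FPKM, SD, n = 4) and *Hbb-bs* (483.7 ± 137.7) were highest and overlapped, followed by *Hbb-y* (221.4 ± 68.2), *Hbb-bt* (147.4 ± 46.1), *Hba-a2* (71.2 ± 16.8), *Hba-x* (25.7 ± 7.26) and *Hbb-bh1* (1.04 ± 0.496). *Hbb-y* thus stood next to these and above *Hbb-bt* within each of the 4 CDD brains, though the ranges of the 2 genes overlapped. Under either diet its rank among the adult genes depends on how reads shared by their copies were counted, which is uncertain. In ND brains *Hbb-y* was at 46.7 ± 5.41 FPKM and ranked 5 of 7, below *Hbb-bt* (225.6 ± 146.6) and *Hba-a2* (120.4 ± 100.1) on average, but the range of *Hba-a2* overlapped its own. *Hbb-bs* (864.6 ± 465.4) and *Hba-a1* (840.4 ± 467.5) led and overlapped. *Hba-x* (8.04 ± 2.21) and *Hbb-bh1* (0.541 ± 0.144) closed the order under either diet.

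The balance of embryonic and adult transcripts was followed within each library, where no scaling between brains is needed. If reads that fit both adult copies were left out, the embryonic shares below are too high under either diet. *Hbb-y* and *Hbb-bh1* together made up 21.4%, 25.5%, 17.1% and 28.3% of beta-like globin counts in the CDD brains. They made up 3.65%, 6.82%, 2.30% and 3.97% in the ND brains. CDD brains averaged 23.1% ± 4.90 and ND brains 4.18% ± 1.90 (SD over 4 brains each), which are 18.9 percentage points apart. *Hba-x* made up 4.50%, 5.45%, 3.96% and 5.08% of alpha-like counts in the CDD brains and 1.08%, 1.36%, 0.724% and 1.23% in the ND brains, with means of 4.75% ± 0.656 and 1.10% ± 0.275 (SD, n = 4 each). Neither share overlapped between the diets, and with 11131 or more globin counts behind each share the widest interval, that of the beta-like share in CDD replicate 4, ran from 27.6% to 29.1%. The split between the clusters overlapped between the diets, as alpha-like genes held 44.3% to 47.9% of all globin counts in CDD and 45.1% to 48.3% in ND brains.

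**Figure D2:**
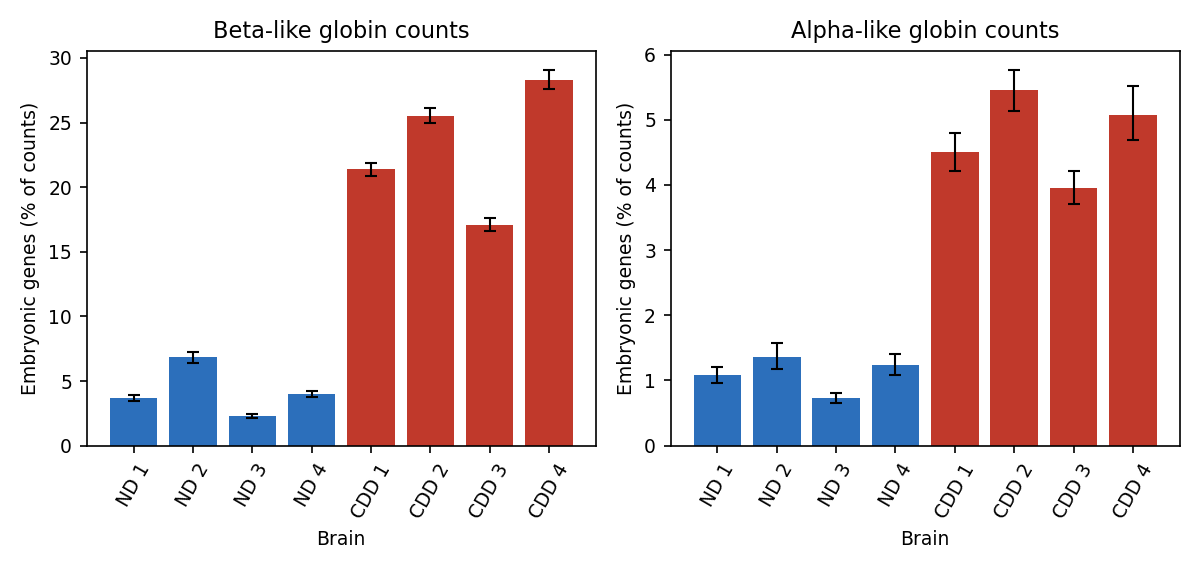
Embryonic share of beta-like (left) and alpha-like (right) globin counts in each brain, in percent, with ND brains in blue, CDD brains in red and 95% Wilson intervals that cover counting error only. The beta-like share is 17.1% to 28.3% in CDD and 2.30% to 6.82% in ND brains, and the alpha-like share 3.96% to 5.45% and 0.724% to 1.36%.

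Among the embryonic genes themselves, *Hbb-y* had 4.69 to 6.75 counts per *Hba-x* count in CDD and 3.36 to 5.35 in ND brains, ranges that overlapped. *Hbb-bh1* was 0.345% to 0.547% of the embryonic beta-like counts in CDD and 0.674% to 1.42% in ND brains. These shares rest on 7 to 31 *Hbb-bh1* counts, some of their 95% Wilson intervals overlap between the diets (0.383% to 0.779% in CDD replicate 1 and 0.327% to 1.38% in ND replicate 1), and nearly all of the denominator is *Hbb-y*, the gene chosen for its rise. Within a diet, the members varied unequally. In ND brains the adult sum spanned 3.72-fold from the lowest to the highest brain while *Hbb-y* spanned 1.31-fold and *Hba-x* 1.94-fold. In CDD brains these spans were 1.96-fold, 2.01-fold and 1.88-fold. Deviations of log2 CPM from the diet means correlated at r = 0.84 to 0.99 over the 6 pairs of adult genes, at 0.76 to 0.94 between *Hba-x* and the adult genes and at 0.46 to 0.61 between *Hbb-y* and the adult genes. The range was 0.02 to 0.30 between *Hbb-bh1* and the adult genes and 0.47 to 0.80 over the 3 pairs of embryonic genes. These describe 8 brains that share their libraries, and reads shared by near-identical copies enter the first range.

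Genes of red blood cells other than globins were then compared, to see whether they moved as the globins did. *Alas2*, which starts heme synthesis in erythroid cells, was at 27.2, 24.1, 21.7 and 14.9 CPM in CDD and 30.9, 13.8, 56.5 and 22.7 CPM in ND brains. ND replicate 3 was again highest, the diets overlapped, and the log2 fold change of -0.50 (SE 0.46) was not called (adjusted p = 0.584, edgeR's test). The anion exchanger *Slc4a1* was at 4.16 to 7.27 CPM in CDD and 3.44 to 10.5 CPM in ND brains, a log2 fold change of -0.06 (SE 0.37, adjusted p = 0.952, edgeR). These standard errors allow sizeable differences in either direction.

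The globin genes were also set against *Alas2* within each brain. There were 43.9, 45.9, 43.4 and 41.1 adult globin counts per *Alas2* count in CDD and 49.9, 56.0, 50.9 and 52.2 in ND brains, a narrow range within each diet although *Alas2* itself spanned 4.08-fold among ND brains. These ratios did not overlap between the diets and were lower in CDD brains. Nothing is read from this, since the adult genes are among those chosen. How reads shared by their copies were counted is also uncertain. There were 432.0 to 780.8 *Hbb-y* counts per 100 *Alas2* counts in CDD and 60.8 to 204.1 in ND brains. Per *Slc4a1* count, *Hbb-y* had 16.6 to 28.2 counts in CDD and 3.26 to 8.22 in ND brains. These ratios of *Hbb-y* carry the difference for which the gene was chosen, and they describe it on another scale. With the adult globin level of each brain as a covariate in the fit, the log2 fold change was 2.41 for *Hbb-y*, 2.05 for *Hba-x* and 1.07 for *Hbb-bh1*.

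**Figure D3:**
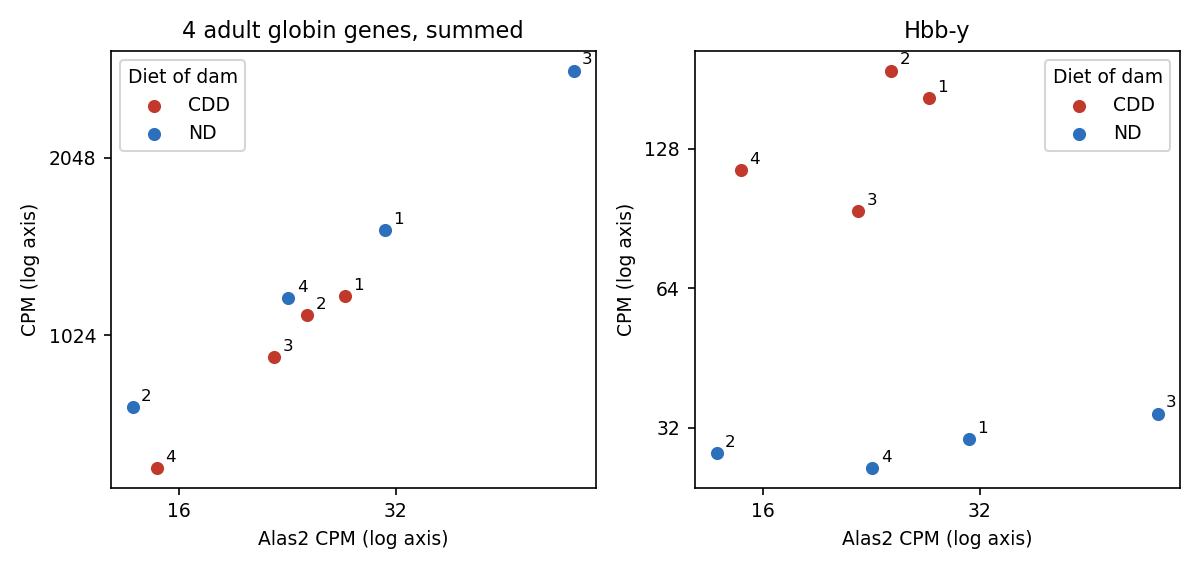
Summed adult globin genes (left) and *Hbb-y* (right) against *Alas2* in each brain, in CPM on log axes, with replicate numbers beside the points. Adult globins follow *Alas2*, at 41.1 to 45.9 counts per *Alas2* count in CDD and 49.9 to 56.0 in ND brains, which do not overlap. *Hbb-y* lies in a high band for CDD (93.7 to 188.5 CPM) and a low band for ND brains (26.2 to 34.3 CPM).

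Of 17 heme synthesis genes, all tested, none was called in edgeR's test and the median log2 fold change was -0.07, against -0.00 over all tested genes. Those with the smallest p were *Urod* at 0.18 (adjusted p = 0.132), *Ppox* at -0.17 (adjusted p = 0.266) and *Alad* at -0.13 (adjusted p = 0.270), each an enzyme of the pathway. Of 32 genes of the erythroid membrane and erythroid enzymes, 24 were tested, with a median of 0.01. Of these, 3 were called, as were 8.83% of all tested genes. The transferrin receptor *Tfrc* rose (0.28, SE 0.064, adjusted p = 0.0151), from 76.7 to 82.9 CPM in ND to 82.6 to 108.2 CPM in CDD brains, with a small overlap. The sodium pump subunit *Atp1b2* (-0.30, SE 0.047, adjusted p = 0.00156) and the glutathione transferase *Mgst3* (-0.28, SE 0.074, adjusted p = 0.0253) fell. All 3 are also made by cells other than erythroid cells, and the call of *Tfrc* ended without ND replicate 3 or 4 and that of *Mgst3* without CDD replicate 1 or ND replicate 1 or 3.

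Of 13 erythroid transcription factors, 11 were tested, with a median of 0.00. In CDD brains 1 was called higher and 1 lower, where 4.24% and 4.59% of all tested genes were. *Tal1*, a factor of blood and endothelial cells and of some neurons, rose (0.22, SE 0.059, adjusted p = 0.0262, edgeR), and *Ikzf1*, a factor of blood cells, fell (-0.43, SE 0.096, adjusted p = 0.00967, edgeR). Both calls ended without ND replicate 3, and that of *Tal1* also without CDD replicate 2 or ND replicate 1 or 4. *Lmo2*, next by p, was at -0.13 (adjusted p = 0.240, edgeR). The factor that drives adult beta globin transcription, *Klf1*, had 11 to 26 counts in CDD and 13 to 22 in ND brains and was at -0.03 (SE 0.32) on the log2 scale. *Gata1* had 1 to 11 and 2 to 7 counts and was not tested.

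Regulators known from globin switching were compared as a list of 28 genes, all tested. Of these, 6 were called higher and 1 lower in CDD brains in edgeR's test, with a median log2 fold change of 0.08, where 4.24% of all tested genes were called higher and 4.59% lower. This list, like the others, was chosen with earlier results of these data known, so no excess of calls is read from it. *Hmga2*, a chromatin protein and target of the LIN28 and let-7 axis, rose from 7.11 to 8.74 CPM in ND to 11.1 to 14.7 CPM in CDD brains (0.74, SE 0.097, adjusted p = 6.71e-04, edgeR). The RNA-binding proteins *Igf2bp3* (0.40, SE 0.062, adjusted p = 0.00128, edgeR) and *Igf2bp2* (0.30, SE 0.057, adjusted p = 0.00449, edgeR) rose as well. Each was higher in 4 of 4 CDD brains than in any ND brain, as were 7.65% of tested genes. *Sox6*, a repressor of *Hbb-y* in definitive erythroid cells, was at 99.0, 98.7, 105.2 and 126.2 CPM in CDD and 84.8, 92.8, 85.7 and 85.5 CPM in ND brains (0.30, SE 0.068, adjusted p = 0.0172, edgeR). The remodeller *Chd4* (0.18, adjusted p = 0.0408) and the deacetylase *Hdac2* (0.18, adjusted p = 0.0238) rose, and *Nfix* fell (-0.20, adjusted p = 0.0409, edgeR). *Bcl11a* was at 271.5 to 293.7 CPM in CDD and 280.2 to 288.4 CPM in ND brains (-0.00, SE 0.044), and *Lin28b*, which sustains fetal gene programmes, at 24.8 to 29.0 and 24.9 to 26.5 CPM (0.05, SE 0.063).

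Neural cells express these regulators too, so in whole brain the part of erythroid cells cannot be told apart. The progenitor markers *Nes* (0.47) and *Pax6* (0.25, adjusted p = 0.00642, edgeR) also rose. *Sox2* at 0.09 (adjusted p = 0.183, edgeR) and *Eomes* at 0.17 (adjusted p = 0.0687, edgeR), also markers of progenitors, were not called. A link between such markers and the regulators was not tested. The calls of *Hmga2*, *Igf2bp2* and *Igf2bp3* held without each brain in turn. The call of *Sox6* ended without ND replicate 1, 3 or 4, that of *Hdac2* without these or CDD replicate 2, that of *Chd4* without CDD replicate 2 or 4 or any ND brain, and that of *Nfix* without CDD replicate 1 or 2 or any ND brain. With the adult globin level as a covariate, 11 of the 16 calls in these pathway lists ended, as calls over all genes went from 1710 to 307, while *Hmga2* and *Igf2bp3* were still called. The 11 log2 fold changes kept their sign, and some hardly moved, such as those of *Tfrc* (0.28 to 0.27), *Egln3* (-0.35 to -0.33), *Tal1* (0.22 to 0.20) and *Ikzf1* (-0.43 to -0.38).

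**Figure D4:**
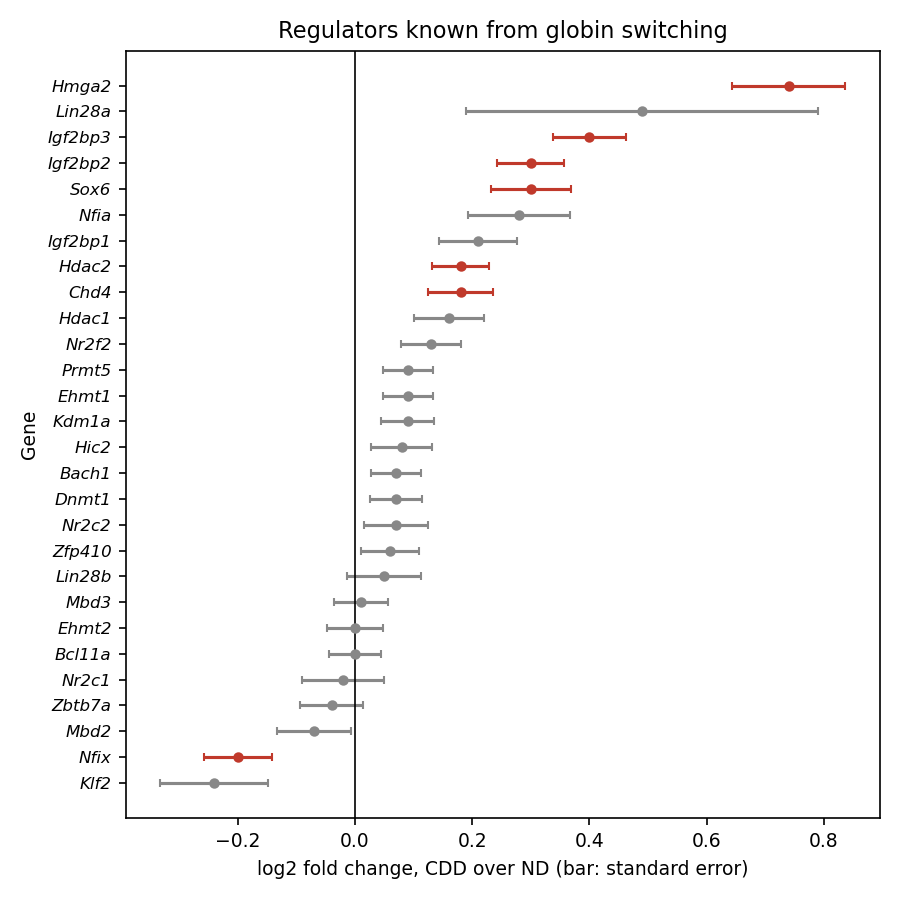
Log2 fold change of CDD over ND brains for the 28 regulators known from globin switching, with standard errors from edgeR's fit. Red points are called (6 higher and 1 lower) and grey points are not, with *Hmga2* farthest from 0 at 0.74 and *Bcl11a* at -0.00.

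Outside the globin clusters, 4 of the 14 other globin family genes listed could be tested. Cytoglobin (*Cygb*), a globin of fibroblast-like cells and neurons, fell from 18.4 to 20.0 CPM in ND to 12.7 to 17.8 CPM in CDD brains (-0.29, SE 0.086, adjusted p = 0.0441, edgeR), a call that ended without CDD replicate 1 or 4 or any ND brain. Neuroglobin (*Ngb*) was at -0.55 (SE 0.21, adjusted p = 0.122, edgeR). The alpha pseudogene *Hba-ps4* was at 0.26 (SE 0.33, adjusted p = 0.695, edgeR).

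Of 17 genes that clear hemoglobin and heme, 14 were tested and 1 was called, as were 8.83% of all tested genes. *Cd163*, the macrophage receptor for hemoglobin bound to haptoglobin, was at 0.724, 0.724, 0.650 and 0.603 CPM in CDD and 2.05, 0.906, 2.08 and 2.00 CPM in ND brains. Among the ND brains, ND replicate 2 lay closest to the CDD values. The log2 fold change of *Cd163* was -1.38 (SE 0.25, adjusted p = 0.00309, edgeR), on 20 to 28 counts in CDD and 29 to 72 in ND brains, and -1.29 without ND replicate 3. From the deposited FPKM *Cd163* was not called, at -0.23 (adjusted p = 0.0593, limma) on the log2(FPKM + 1) scale and -0.87 (adjusted p = 0.0526, limma) with a pseudocount of 0.1, and a pseudocount shrinks the change of a gene this low. Next by p were the heme transporter *Slc48a1* (-0.16, adjusted p = 0.0546) and the heme-binding *Hebp1* (-0.40, adjusted p = 0.218, edgeR). Of 10 hypoxia genes tied to oxygen transport, 8 were tested and 2 fell, where 4.59% of all tested genes were called lower. They were *Ndrg1* (-0.43, SE 0.078, adjusted p = 0.00344, edgeR) and the prolyl hydroxylase *Egln3* (-0.35, SE 0.082, adjusted p = 0.0141, edgeR). The call of *Egln3* ended without ND replicate 1 or 4, and both calls ended without CDD replicate 2 and ND replicate 3 together. *Hif1a*, the oxygen-sensing factor, was at 0.18 (adjusted p = 0.151, edgeR).

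Markers of other cells that could bring blood or yolk sac RNA were set beside these results. Over all tested genes, 8.83% were called in edgeR's test. Among 11 liver and yolk sac markers, 9 were found, and the defining *Afp* and *Alb* were at 0.144 CPM or less in every brain. *Amn*, a membrane protein of visceral endoderm, fell (-0.86, SE 0.20, adjusted p = 0.0130, edgeR), and so did the iron carrier transferrin, *Trf* (-0.23, SE 0.067, adjusted p = 0.0419, edgeR), while the other 3 of the 5 tested were not called. The summed level of that list was 169.1 to 461.1 CPM in CDD and 274.6 to 319.7 CPM in ND brains, nearly all of it *Ttr*, a product of choroid plexus as well. The 10 macrophage and microglia markers summed to 78.4 to 89.6 CPM in CDD and 87.9 to 101.4 CPM in ND brains, with *Mrc1* called (-0.27, SE 0.076, adjusted p = 0.0335, edgeR). Endothelial markers summed to 343.1 to 374.0 and 363.7 to 380.7 CPM, with 1 of 10 called, *Cldn5* (-0.28, SE 0.059, adjusted p = 0.00768, edgeR). Platelet markers (8.44 to 10.83 and 8.96 to 12.04 CPM) and other leukocyte markers (9.13 to 12.06 and 10.40 to 11.75 CPM) overlapped, with none called. The 10 erythroid markers that are reported here summed to 22.1 to 39.2 CPM in CDD and 20.2 to 71.9 CPM in ND brains, and none of the 6 tested was called. The part of these cells in the globin values was not tested.

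Last, the genes with the most similar pattern over the 8 brains were listed among 15880 genes whose mean reached 1 CPM. The mean centred log2 CPM of the 4 adult genes had among its 5 nearest genes *Fech* (r = 0.987), *Alas2* (0.980), *Ube2l6* (0.976) and *Mettl25* (0.959). *Fech* and *Alas2* are the last and first enzymes of erythroid heme synthesis. From deviations within the diets, the 5 nearest were *Slc4a1* (0.988), *Alas2* (0.985), *Fech* (0.985), *Ube2l6* (0.977) and *Tdrd1* (0.970). For the 3 embryonic genes the nearest were *Nudcd2* (0.980), *9430041J12Rik* (0.972), *Lhx4* (0.968), *Ccdc8* (0.966) and *Pdpn* (0.955), and none of these is in the erythroid lists. Within the diets they were *Gm44770* (0.982), *Ikzf5* (0.979), *Emp1* (0.972), *Fbn1* (0.971) and *Zfp14* (0.970). There the embryonic mean also correlated with *Slc4a1* (0.602), *Alas2* (0.517) and *Ube2l6* (0.621). This mean weights the low *Hbb-bh1* like the other embryonic genes. Over all 8 brains it carries the diets' difference that chose the genes. The nearest genes are the extremes of many correlations over 8 points and describe these brains only.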

How the data were processed

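Whole brains of E14.5 embryos were sequenced, 4 per maternal diet, grouped by the titles of the labels. The authors deposited a raw read count per gene, a size-factor-scaled signal and FPKM. Their processing notes name HISAT2 2.0.5, featureCounts 1.5.0-p3 and DESeq2 1.20.0. Their fold changes and p-values were not used. The genome build, strandedness and the treatment of reads that map to several genes are not given in the sources used here.

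The deposited counts were filtered with filterByExpr, scaled by TMM and tested with the robust quasi-likelihood test of edgeR 4.0.16 (R 4.3.3) on diet alone, with Benjamini-Hochberg adjustment over 19367 genes and a threshold of 0.05. Globin genes and lists were chosen with earlier results of these data known. Shares carry 95% Wilson intervals. Named were the 7 globin genes, all called genes of a pathway list with few calls or its 3 genes of smallest p, 9 erythroid and switching genes, and the 5 genes nearest in pattern by Pearson correlation of log2 CPM (prior count 2). Some genes that this rule or the erythroid marker list holds are not reported here, and the list was shortened by them after its values had been seen. Its remaining markers are *Alas2*, *Slc4a1*, *Epb42*, *Rhag*, *Hemgn*, *Trim10*, *Klf1*, *Gata1*, *Ermap* and *Cldn13*. Alternatives used limma 3.58.1, DESeq2 1.42.0, other scalings and filters, the deposited FPKM (log2 with a pseudocount of 1 or 0.1) and signal, and brains left out. Leaving out CDD replicate 2 and ND replicate 3 together was added after the data were seen. Coding sequences are the longest reading frames of GENCODE M21 transcripts. The test was tried on simulated data. Tables, intervals and figures were made with pandas 2.3.3, SciPy 1.17.1, NumPy 2.4.6 and matplotlib 3.10.9 in Python 3.11.15.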

Additional observations from a re-analysis of the deposited data

Results flagged for a closer look

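In 84 groups of 4 brains examined for a brain far from the rest, 4 were marked, where chance at 1 in 20 gives 4.2. They were *Cd163* in ND replicate 2, at a log2 CPM of -0.05 against 1.04 to 1.10 in the other ND brains, *Ndrg1* in ND replicate 2, at 5.21 against 5.44 to 5.49, *Sox6* in ND replicate 2, at 6.54 against 6.41 to 6.42, and *Bcl11a* in ND replicate 4, at 8.17 against 8.13. None of the 7 globin genes was marked, although the adult genes were highest in ND replicate 3.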

How the results depend on the processing

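The 1710 calls over all genes became 1414 to 2374 under other scalings, tests and filters (2151 with DESeq2 and 2374 with no filter, of which 1667 and 1662 were among the 1710), 307 with the adult globin level as a covariate, 390 or 404 from FPKM with a pseudocount of 1 or 0.1, 418 without CDD replicate 2 and ND replicate 3, and 471 to 2495 with each brain left out, lowest without ND replicate 3 (688 without ND replicate 1, 615 without ND replicate 4). The 16 calls in the 7 pathway lists became 7, 5, 5 and 5 under the covariate, both FPKM settings and without those 2 brains, and 7 to 23 with each brain left out. The globin genes past the threshold, 2 of 7, were 1 with the replicate number as a block (*Hba-x* was lost) and 1 to 3 with each brain left out, which is a description and no test, since the diets' difference chose them. The cause was not tested. Same-numbered brains deviated together at r = 0.105, -0.133, 0.117 and 0.232, so the numbers were not taken to pair brains, and the block gave 1812 calls over all genes.

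With each brain left out, the log2 fold change ran from 2.06 to 2.39 for *Hbb-y*, 1.50 to 1.85 for *Hba-x*, 0.69 to 1.15 for *Hbb-bh1*, -0.86 to -0.20 for *Hba-a1*, -1.06 to -0.10 for *Hba-a2*, -1.07 to -0.43 for *Hbb-bs* and -0.86 to -0.08 for *Hbb-bt*. The difference of the embryonic shares ran from 17.2 to 20.9 percentage points for beta-like and 3.42 to 3.91 for alpha-like counts, and that of the adult globin level from -0.90 to -0.27 on the log2 scale. None of these moved by more than the spread between brains under the alternatives for which it was compared. The adult genes were not compared under the adult globin covariate, which is made from their own level. Under it *Hba-a1*, *Hba-a2*, *Hbb-bs* and *Hbb-bt* were at 0.05, 0.30, -0.14 and 0.20. Depth limited *Hbb-bh1*, which the filter of at least 10 counts in every brain removed.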
